A study of Mus musculus with 20 samples.

Results

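The hindlimb and the forelimb were compared in digit 2 of mouse embryos. The comparison used every digit 2 library of the series, 12 of 20 libraries, with 6 from the hindlimb and 6 from the forelimb. Messenger RNA was sequenced from the distal, middle and proximal phalanx, the segments of the digit, at embryonic day 16 (E16) and at embryonic day 17 (E17). Each stage and phalanx gave 1 hindlimb library and 1 forelimb library, and these were set against each other as 6 matched pairs. Phalanges of 20 embryos at E16, or 10 at E17, were pooled for each library, and the labels name no treatment or genotype. No combination of stage, limb and phalanx was replicated, so the p-values measure how well the 6 pairs agree, and the labels do not say whether libraries share embryos. Stage cannot be told apart from pool size or count table.

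Forelimb and hindlimb buds are built by largely shared programmes and differ in a few transcription factors. Tbx5 marks the forelimb, while Pitx1 and Tbx4 mark the hindlimb, and in mouse Pitx1 acts upstream of Tbx4. Hox genes record position along the body axis and along the limb, and genes at the start of the HoxA and HoxB clusters are used in more anterior parts of the embryo than those at the end. In the late digit, cartilage, tendon, dermis, epidermis and, in the distal phalanx, the nail lie side by side, and all of them contribute to these libraries.

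Total counts ranged from 70871735 to 77361898 in the 6 libraries of E16 and from 76597986 to 111204552 in the 6 of E17. Levels are given in CPM, counts per 1000000 counts of the library after scaling by TMM factors that ranged from 0.899 to 1.05. The labels name the limb, digit and phalanx and no tissue. Summed CPM was 462 to 2421 for the cartilage matrix list and 15875 to 60904 for the epidermis list, while the skeletal muscle list reached 20.2 to 283 CPM. The mature bone genes Bglap, Bglap2, Dmp1 and Mepe did not reach 1 CPM in 4 libraries and were not tested. Within digit 2, pair membership held 85.8% of the variation (sum of squares) in log2 CPM, and limb held 5.56%.

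Of 14530 genes tested, 888 (6.11%) passed an adjusted p of 0.05 in edgeR's paired quasi-likelihood test with Benjamini-Hochberg adjustment. The hindlimb was higher for 313 genes (2.15%) and lower for 575 genes (3.96%). Where a list below gives no share of its own, its counts are read against these shares. Differences of at least 2-fold were few, with 30 genes higher and 71 lower, and the median log2 fold change over all genes tested was -0.01. In 775 of the 888 genes, all 6 pairs went the same way. Over all genes tested, the hindlimb was higher in 6 of 6 pairs for 6.58% and lower in 6 of 6 for 7.45%. All 6 hindlimb values lay above all 6 forelimb values for 42 genes (0.289%) and below them for 19 genes (0.131%). Leaving out the E16 middle pair left 404 genes, without the E16 proximal pair there were 420, without the E17 distal pair 585 and without the E17 middle pair 513. Of 128 genes that passed and were named by rank or belong to a list, 71 kept the call in each fit with 1 pair left out that tested them, and 57 lost it in at least 1 such fit. Some of the 71 were not tested in all 6 fits, with Krt81 tested in 4 and Hoxb8 in 2. Krt81 was too low to be tested without either distal pair, so its dependence on a single distal pair could not be checked.

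Of the limb identity genes, Pitx1 and Tbx4 were higher and Tbx5 was lower in the hindlimb in 6 of 6 pairs. Pitx1, the hindlimb homeobox factor, was at 21.0, 43.8 and 96.9 CPM (lowest, median and highest) in the hindlimb and at 0.132, 0.564 and 3.69 CPM in the forelimb. The groups did not overlap, and at both stages the distal phalanx held the highest level in each limb. The log2 fold change, hindlimb over forelimb, was 5.76 ± 0.26 (SE, 6 pairs; edgeR adjusted p = 1.9e-07). Tbx4, the hindlimb T-box factor, was at 53.4, 56.3 and 73.2 CPM in the hindlimb and at 10.0, 17.9 and 22.9 CPM in the forelimb, where both distal libraries were lowest. Its groups did not overlap either, and its log2 fold change was 1.89 ± 0.14 (adjusted p = 1.6e-05). The forelimb thus held a measurable Tbx4 level in every library, whereas Pitx1 there was under 1 CPM in the middle and proximal phalanges.

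Tbx5, the forelimb T-box factor, was at 1.92, 3.64 and 17 CPM in the hindlimb and at 39.6, 65.1 and 96.5 CPM in the forelimb. The groups did not overlap. Within the hindlimb, the middle phalanx was highest at both stages, with 17 CPM at E16 and 10.2 CPM at E17, and the other 4 libraries lay between 1.92 and 5.07 CPM. The log2 fold change was -3.76 ± 0.38 (adjusted p = 0.00018). Of the other T-box genes, Tbx18 was lower in the hindlimb in 6 of 6 pairs, with a log2 fold change of -0.67 ± 0.10 (adjusted p = 0.0019). Tbx15, which acts in skeletal and skin development, was lower in 5 of 6 pairs and only just passed (-0.24 ± 0.07, adjusted p = 0.049), and it kept the call when the E17 distal pair was left out but not when any of the other 5 was. Tbx2 and Tbx3 did not pass in edgeR, at 0.07 ± 0.11 and -0.34 ± 0.10. In all, 2 of the 8 limb identity and T-box genes tested were higher in the hindlimb and 3 were lower. The number lower depended on the method, with 5 in DESeq2 and 2 in the edgeR fit of all 20 libraries. Of the 8, 5 had a negative log2 fold change.

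Otx1, a homeobox factor best known from the brain, was at 6.37, 9.61 and 11.8 CPM in the hindlimb and at 16, 20.8 and 24.3 CPM in the forelimb. The groups did not overlap, and every pair fell, with a log2 fold change of -1.14 ± 0.09 (adjusted p = 2.9e-05). For Pitx1, Tbx4, Tbx5 and Otx1, the direction and the call held under each of the 17 alternatives run.

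**Figure D1:**
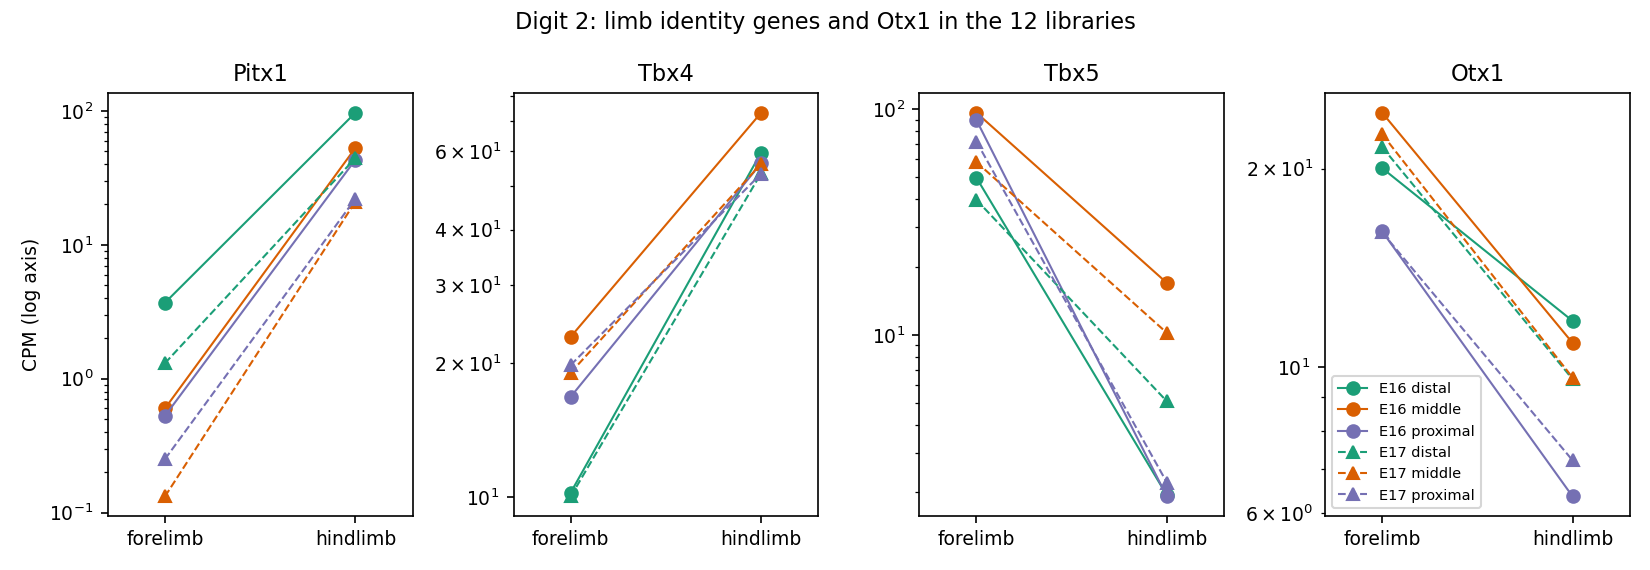
CPM of Pitx1, Tbx4, Tbx5 and Otx1 in the forelimb (left of each panel) and hindlimb (right) of digit 2, on log axes. Each line joins a matched pair, circles are E16 and triangles E17, and colours give the phalanx. Pitx1 and Tbx4 rise and Tbx5 and Otx1 fall in all 6 pairs, with no overlap between the limbs.

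Several HoxA and HoxB genes were higher in the hindlimb digit. In the HoxA list, which includes the noncoding Hottip and Hoxa11os, 6 of 10 members tested rose, namely Hoxa3, Hoxa5, Hoxa6, Hoxa7, Hoxa9 and Hoxa10, and the median log2 fold change of the list was 1.11. Hoxa7 was at 7.31, 8.83 and 17.2 CPM in the hindlimb and at 0.683, 1.22 and 2.59 CPM in the forelimb. The groups were apart, with a log2 fold change of 2.94 ± 0.18 (adjusted p = 4.4e-06). Hoxa9 was at 21.3, 32.2 and 40.1 CPM against 7.41, 8.85 and 12.4 CPM, again with no overlap, and changed by 1.75 ± 0.11 (adjusted p = 5.4e-06). Hoxa3 changed by 1.87 ± 0.16 (adjusted p = 5.0e-05). Hoxa5 and Hoxa6, at hindlimb medians of 3.04 and 2.96 CPM, were below 1 CPM in every forelimb library and had log2 fold changes of 3.11 ± 0.42 and 3.04 ± 0.36. These last 2 passed the filter on low values only through the hindlimb, so the counts and medians of the HoxA list describe the members tested and not the cluster. Under a stricter filter, of 5 CPM in at least 6 libraries, 3 of 7 members rose and the median was 0.40.

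The difference varied along the HoxA cluster. In gene order, the log2 fold change was 1.87 at Hoxa3, 3.11 to 2.94 from Hoxa5 to Hoxa7, 1.75 at Hoxa9, 0.46 ± 0.06 at Hoxa10 and -0.01 ± 0.11 at Hoxa11, and Hoxa13, the last gene, was at 0.30 ± 0.12 (adjusted p = 0.14). Hoxa10 and its neighbour Hoxa9 were both higher in 6 of 6 pairs, but the Hoxa10 groups overlapped, at 34.2, 55.5 and 85.8 CPM against 28.1, 40.2 and 61.3 CPM. Hoxa11 was higher in 3 pairs and lower in 3. Hoxa11 and its antisense transcript cannot be told apart here, since no strand-specific counting is stated. Hoxa2 and Hoxa4 were too low to be tested.

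In the HoxB list, all 4 members that passed the filter on low values rose (Hoxb3, Hoxb7, Hoxb8 and Hoxb9), while the other 6 members were too low to test. Hoxb7 and Hoxb8 were below 1 CPM in every forelimb library and so passed that filter only through the hindlimb. Their fold changes and calls carry that limit, and these 4 do not stand for the cluster. Hoxb9 was the most abundant, at 5.38, 6.63 and 9.11 CPM in the hindlimb and at 1.73, 2.49 and 3.49 CPM in the forelimb. Its groups were apart and it changed by 1.37 ± 0.20 (adjusted p = 0.002). Hoxb8 and Hoxb7 changed by 2.23 ± 0.37 and 1.92 ± 0.32 at levels of at most 1.69 and 2.64 CPM. Hoxb3 only just passed (1.40 ± 0.38, adjusted p = 0.049) and lost the call without any pair but the E17 middle one. With the E16 middle, E16 proximal or E17 proximal pair left out, Hoxb7 and Hoxb9 passed and Hoxb8 was too low to be tested.

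The other clusters gave few calls in edgeR. None of 8 HoxC members tested passed in edgeR, where 2 had an unadjusted p under 0.05, or in DESeq2. Hoxc10, a gene with hindlimb-weighted expression in the mouse limb bud, was higher in 6 of 6 pairs but at 0.34 ± 0.12 (adjusted p = 0.12). In the HoxD list 1 of 7 members passed in edgeR, Hoxd8, which was lower in 6 of 6 pairs at -0.52 ± 0.14 (adjusted p = 0.043). That call was lost without any pair but the E17 middle one. DESeq2 called 4 of the 7 lower, while the edgeR fit of all 20 libraries called none. Of the 7, 6 had a negative log2 fold change. Hoxd12 and Hoxd13, the genes most used in the digits, were at 0.07 ± 0.09 and -0.12 ± 0.06. Hoxd13 reached 364 CPM in the hindlimb against 371 CPM in the forelimb.

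**Figure D2:**
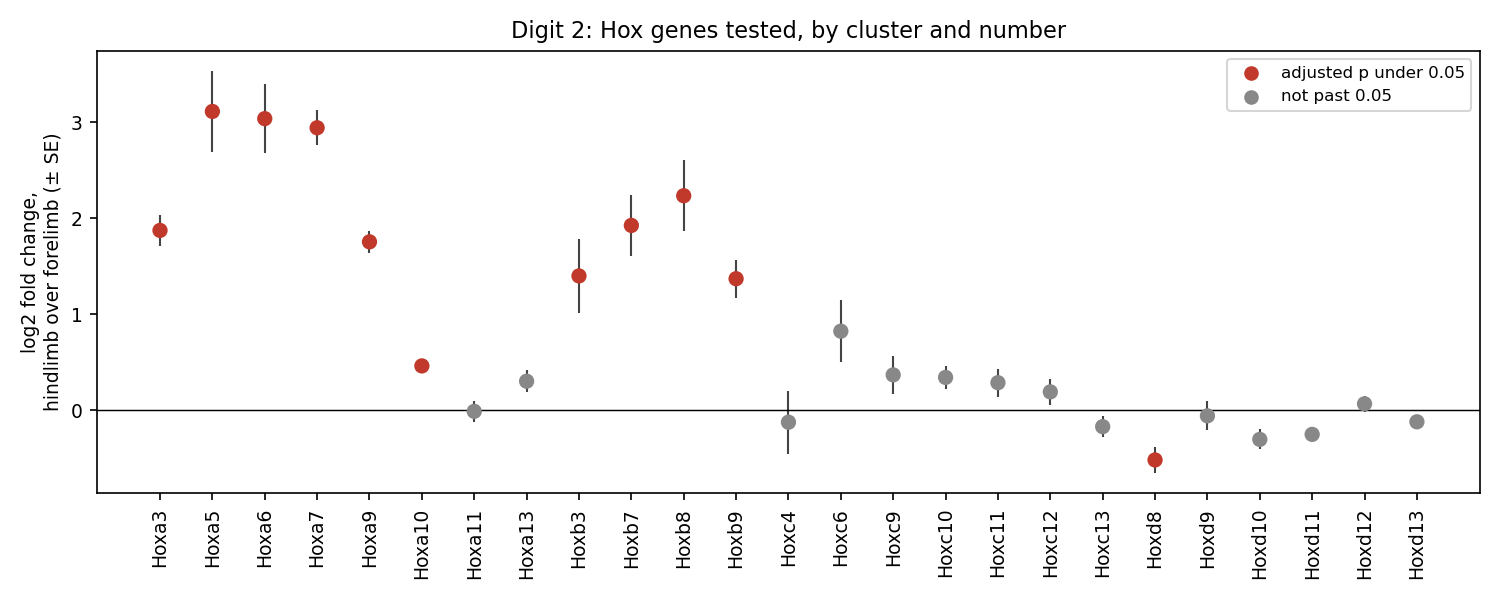
Log2 fold change, hindlimb over forelimb in digit 2, with its standard error, for the Hox genes tested, ordered by cluster and gene number. Red points passed an adjusted p of 0.05 in edgeR. Points from Hoxa3 to Hoxa10 and from Hoxb3 to Hoxb9 lie above 0, no HoxC point passed, and Hoxd8, the only HoxD gene that passed, lies at -0.52.

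Genes of cell division were slightly higher in the hindlimb. In the cell cycle list, 18 of 34 members rose and none fell, against 2.15% and 3.96% of all genes tested. Of the 34, 33 had a positive log2 fold change, and the median was 0.23 against -0.01 over all genes. Summed CPM of the list was 3249, 3917 and 4793 in the hindlimb and 2769, 3574 and 4112 in the forelimb, higher in 6 of 6 pairs though the groups overlapped. In bulk RNA, more cells of a kind and more RNA per cell cannot be told apart. The number of members past the threshold depended on single pairs, with 4 without the E16 middle pair, 7 without the E17 distal pair, 8 without the E16 proximal pair and 9 without the E17 middle pair, while the median stayed between 0.21 and 0.24. No member passed in the E16 pairs alone, in the E17 pairs alone or without both middle pairs, with medians of 0.25, 0.18 and 0.22. In a fit of all 20 libraries 5 members rose, with a median of 0.24.

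All hindlimb values lay above all forelimb values for 4 of the 34 members, against 0.289% of all genes tested. Cdk1, the kinase of mitotic entry, was at 78.6, 85.5 and 91.7 CPM in the hindlimb and at 63.5, 67.6 and 76.6 CPM in the forelimb, with a log2 fold change of 0.31 ± 0.05 (adjusted p = 0.0054). Cdc20, which activates the anaphase-promoting complex, was at 79.8, 87.6 and 96.5 CPM against 66.1, 72.6 and 78.8 CPM (0.27 ± 0.06, adjusted p = 0.019). Without the E16 middle or the E16 proximal pair Cdc20 no longer passed, while Cdk1 passed with any pair left out. Cdca8, of the chromosomal passenger complex, changed by 0.31 ± 0.06 and Tyms, which makes thymidylate, by 0.29 ± 0.06 (adjusted p = 0.012 for both). The replication helicase genes Mcm2, Mcm3, Mcm5 and Mcm7 rose by 0.21 to 0.25, each losing the call in at least 4 of the 6 fits with a pair left out. The proliferation marker Mki67 and the cyclin gene Ccnd1 were at 0.03 ± 0.08 and 0.06 ± 0.05.

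The promoters of these 4 genes are printed because promoters of mitotic and S-phase genes carry known motifs and the members moved together. Each window runs from 250 bases before to 50 after the start, from RefSeq on GRCm38.p6, on the minus strand at chr10:69352863-69353162 (Cdk1), chr4:118437294-118437593 (Cdc20), chr4:124936868-124937167 (Cdca8) and chr5:30073576-30073875 (Tyms). Capitals mark, on either strand, an E2F motif (TTTCCCGC, TTTGGCGC, TTTCGCGC or TTTGCCGC), the cell cycle homology region (TTTGAA) and the CCAAT box (CCAAT, read ATTGG on the other strand). In Cdca8 a TTTGAA and an ATTGG overlap.
Cdk1: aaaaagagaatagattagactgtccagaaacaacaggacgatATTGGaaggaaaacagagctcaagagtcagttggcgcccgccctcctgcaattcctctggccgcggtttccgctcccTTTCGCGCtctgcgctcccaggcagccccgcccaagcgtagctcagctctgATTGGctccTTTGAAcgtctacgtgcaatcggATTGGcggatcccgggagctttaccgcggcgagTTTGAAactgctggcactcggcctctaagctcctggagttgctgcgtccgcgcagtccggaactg
Cdc20: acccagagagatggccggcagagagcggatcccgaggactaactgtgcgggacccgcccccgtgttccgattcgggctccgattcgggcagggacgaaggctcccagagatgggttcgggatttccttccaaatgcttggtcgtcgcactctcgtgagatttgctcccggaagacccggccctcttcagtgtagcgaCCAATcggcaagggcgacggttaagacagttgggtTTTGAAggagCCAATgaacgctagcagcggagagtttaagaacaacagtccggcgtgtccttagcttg
Cdca8: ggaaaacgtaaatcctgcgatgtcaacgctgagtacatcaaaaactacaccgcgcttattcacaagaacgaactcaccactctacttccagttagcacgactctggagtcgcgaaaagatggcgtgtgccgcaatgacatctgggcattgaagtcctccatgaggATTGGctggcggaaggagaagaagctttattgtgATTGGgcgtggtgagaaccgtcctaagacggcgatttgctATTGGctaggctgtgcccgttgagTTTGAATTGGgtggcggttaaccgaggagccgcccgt
Tyms: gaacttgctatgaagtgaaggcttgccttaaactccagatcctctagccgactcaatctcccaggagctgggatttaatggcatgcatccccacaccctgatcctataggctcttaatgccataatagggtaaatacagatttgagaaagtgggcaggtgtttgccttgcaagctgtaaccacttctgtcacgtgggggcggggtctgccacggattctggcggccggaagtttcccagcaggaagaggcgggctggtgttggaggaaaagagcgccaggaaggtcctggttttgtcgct

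Cdk1 held an E2F match at position -131, a pair of TTTGAA matches at -71 and -15 and CCAAT boxes at -208, -80 and -48, counted from the start. Cdc20 and Cdca8 each held 1 TTTGAA and, respectively, 2 and 4 CCAAT boxes, and Tyms held none of these letters in this window. Promoters were found for 16 of the 18 members that rose. TTTGAA was present in 8 of the 16 (50%), against 18.1% of all 27025 promoters of this length and 12.3% of the 11399 belonging to genes tested. An E2F motif was present in 5 of the 16 (31.2%), against 2.32% and 3.97%, and a CCAAT box in 12 of the 16 (75%), against 37.9% and 38.7%. Over all 28 cell cycle members tested with a promoter, whether they passed or not, the shares were 42.9% for TTTGAA, 25% for E2F and 75% for the CCAAT box. Among the 4 promoters of hard keratin genes that fell, 3 held TTTGAA (75%). A match is a description of the sequence and not evidence of binding, and the list was chosen for its role in the cell cycle.

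Genes of connective tissue were lower in the hindlimb. In the fibrous collagen list 7 of 11 members fell, against 3.96% of all genes tested. All 11 were negative and the median was -0.31. Among 13 tendon and ligament genes 7 fell, all 13 were negative and the median was also -0.31. The lists share Col14a1, Col12a1 and Col3a1. In the E17 pairs alone 2 members of each list fell, with medians of -0.29 and -0.27. Without both middle pairs 3 fibrous collagen and 4 tendon members fell, and without both proximal pairs 4 and 3. In a fit of all 20 libraries 6 fibrous collagen and 2 tendon members fell. Col1a1, the main collagen of skin, tendon and bone, was at 2459, 5059 and 6213 CPM in the hindlimb and at 3564, 7005 and 9884 CPM in the forelimb. The ranges overlapped because the distal phalanx was low in both limbs, but all 6 pairs fell, with a log2 fold change of -0.55 ± 0.05 (adjusted p = 0.00015). Its partner Col1a2 fell by 0.40 ± 0.05 and Col6a3, a microfibril collagen, by 0.56 ± 0.08.

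Among tendon genes, Thbs2, a matricellular protein, was at 143, 173 and 232 CPM against 195, 234 and 340 CPM and was lower in 6 of 6 pairs (-0.50 ± 0.06, adjusted p = 0.00079). Tnmd, a marker of mature tenocytes, fell by 0.43 ± 0.10, and the small proteoglycan Dcn fell by 0.44 ± 0.07. The tendon regulators Scx and Mkx did not pass, at -0.00 ± 0.11 and -0.03 ± 0.09. Tnmd lost the call without the E16 distal, E16 proximal or E17 proximal pair, while Thbs2 and Dcn kept it with any pair left out.

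Of 10 osteoblast and bone matrix genes, 5 fell (Col1a1, Col1a2, Sparc, Omd and Ifitm5) and none rose. Col1a1 and Col1a2 also belong to the fibrous collagen list, so the falls of these lists are not separate. Ifitm5 lost its call without the E16 middle, E16 proximal or E17 middle pair, and was too low to be tested without either distal pair. The transcription factors Sp7, Dlx3 and Dlx5 did not pass. Ibsp, a bone sialoprotein, was at 0.437, 3.73 and 23.0 CPM in the hindlimb and at 1.34, 7.37 and 75.3 CPM in the forelimb, highest in the E17 distal phalanx of each limb. It was lower in 6 of 6 pairs, with a log2 fold change of -1.46 ± 0.22 (adjusted p = 0.0027). In the osteoclast list 3 of 6 members fell. Itgb3, an integrin of the osteoclast and the platelet, changed by -0.73 ± 0.12, Mmp9 by -0.95 ± 0.21 and the protease gene Ctsk by -0.26 ± 0.06. The osteoclast enzyme Acp5 did not pass (0.14 ± 0.09). Without the E16 middle pair only Itgb3 was left. Mmp9 also lost its call without the E16 proximal pair and Ctsk without the E17 middle or E17 proximal pair.

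Of 19 cartilage matrix genes, 3 rose (Sox9, Col9a3 and Matn1), against 2.15% of all genes tested. None fell and the median was 0.29. The list median was 0.58 in the 3 E16 pairs alone, where 5 rose, and 0.03 in the 3 E17 pairs alone, where none of 17 passed. Sox9, the master factor of chondrocytes, was at 22.7, 57.0 and 116 CPM in the hindlimb and at 21.4, 37.1 and 85.8 CPM in the forelimb, higher in 6 of 6 pairs at 0.43 ± 0.09 (adjusted p = 0.022). Matn1, a cartilage matrix protein, was at 36.5 CPM in the E16 proximal hindlimb library and at 0.159 to 7.92 CPM in the forelimb. It changed by 1.58 ± 0.31 (adjusted p = 0.013). Col2a1, the main cartilage collagen, was at 0.54 ± 0.16 and did not pass (adjusted p = 0.061). Summed CPM of the list stood apart in that same E16 proximal hindlimb library, at 2421 against 1257 in its forelimb match, and was lower in the hindlimb in the E17 middle (756 against 842) and E17 proximal (923 against 949) pairs. Without the E16 proximal pair none of the 18 members then tested passed, and the median was 0.24. Sox9 also lost the call without the E16 middle pair, and Col9a3 without the E16 distal, E16 middle or E17 distal pair.

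Joint genes gave a mixed picture, with 3 of 14 up and 1 down. Gdf5, the growth factor of the joint interzone, was at 11.1, 36.5 and 128 CPM in the hindlimb and at 7.91, 27.4 and 68.9 CPM in the forelimb, highest in the middle phalanx. It was higher in 6 of 6 pairs at 0.46 ± 0.10 (adjusted p = 0.018). Erg, a transcription factor of articular chondrocytes, changed by 0.28 ± 0.06 and Sfrp2, a Wnt modulator, by 0.44 ± 0.07. Creb5, known from articular cartilage, fell by 0.41 ± 0.09. Gdf5 did not pass without the E16 middle or E16 proximal pair, Erg without the E16 middle or E17 proximal pair and Creb5 without the E16 proximal pair.

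**Figure D3:**
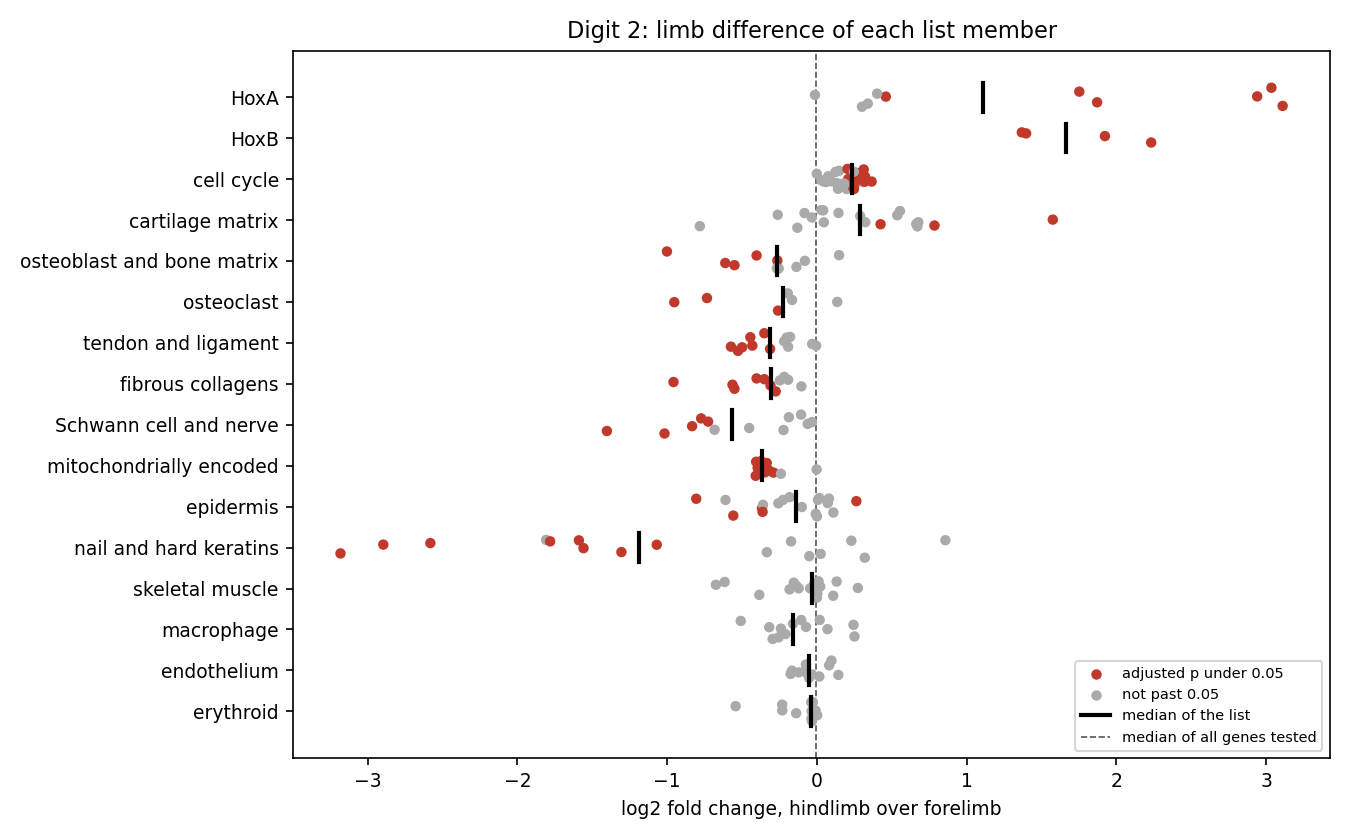
Log2 fold change of each tested member of 16 gene lists in digit 2, hindlimb over forelimb. Each point is a gene, red where it passed an adjusted p of 0.05, black bars are list medians and the dashed line is the median of all genes tested, -0.01. HoxA, HoxB and cell cycle lie to the right, and connective tissue, Schwann cell, mitochondrial and hard keratin lists to the left.

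Schwann cell genes were lower in the hindlimb. In that list 5 of 12 members fell, among them Sox10, Foxd3, Cdh19 and Gfra3, against 3.96% of all genes tested. All 12 were negative and the median was -0.57. Sox10, the factor that specifies glia of the neural crest, was at 2.06, 6.07 and 8.54 CPM in the hindlimb and at 4.33, 9.16 and 12.2 CPM in the forelimb. The ranges overlapped, but it fell in 6 of 6 pairs (-0.73 ± 0.14, adjusted p = 0.012). The receptor gene Erbb3, which skin also expresses, was at -0.03 ± 0.06 and did not pass. Without the E16 proximal or the E17 middle pair 2 members passed, and without the E16 middle pair 3, with Sox10 and Gfra3 among them in each of these fits. In the E16 pairs alone 3 members fell, and in the E17 pairs alone none of 10 passed. Without both middle pairs 1 fell, and in the fit of all 20 libraries 2 did.

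Transcripts of the mitochondrial genome were also lower, with 11 of 13 down, all 13 negative and a median of -0.37. ND4, a subunit of respiratory complex I, changed by -0.41 ± 0.08 (adjusted p = 0.0096), a call that held with any pair left out, and COX1, of complex IV, by -0.32 ± 0.08 (adjusted p = 0.036), a call lost without any 1 of the E16 pairs or the E17 middle pair. Summed CPM was 7301, 8052 and 9660 in the hindlimb and 7805, 9967 and 13523 in the forelimb, with the E16 distal and E16 proximal forelimb libraries highest at 13523 and 13445. The pairs differed more at E16, where the list median was -0.46 in the 3 E16 pairs alone against -0.23 in the 3 E17 pairs alone. Counts fell to 2 without the E16 proximal pair, 3 without the E17 middle pair and 7 without the E16 distal pair. They fell to 1 without both proximal pairs or in the E17 pairs alone, to 3 without both middle pairs and to 0 in a fit of all 20 libraries, where the median was -0.36. Whether RNA quality takes part in this difference was not tested.

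**Figure D4:**
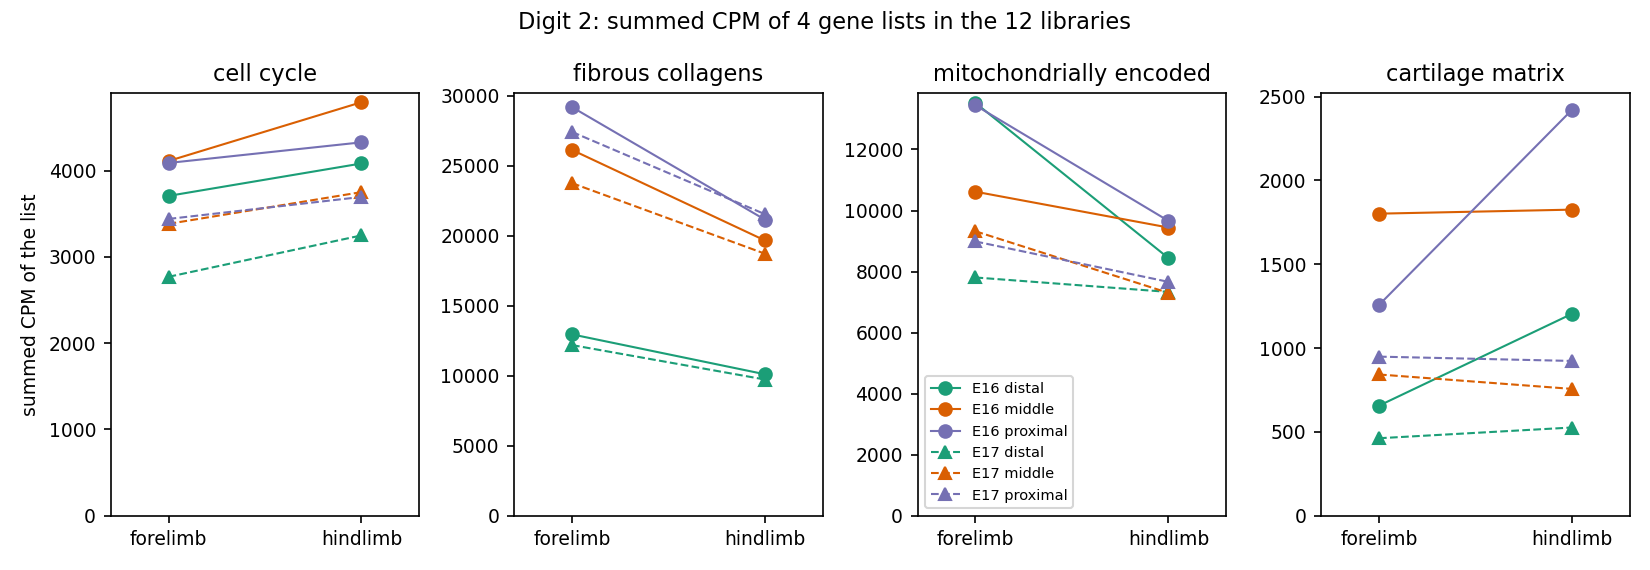
Summed CPM of 4 gene lists in the forelimb and hindlimb libraries of digit 2, with lines joining matched pairs. The cell cycle sum rises in 6 of 6 pairs, the fibrous collagen and mitochondrial sums fall in 6 of 6, and the cartilage sum rises in 4 of 6 with the E16 proximal hindlimb library highest at 2421.

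Of the lists for other cell types, 4 gave no member past the threshold in edgeR or in DESeq2, with 0 of 16 in skeletal muscle, 0 of 13 in macrophage, 0 of 12 in endothelium and 0 of 12 in erythroid, where 6.11% of all genes passed. Members with an unadjusted p under 0.05 numbered 1, 1, 2 and 1. Their medians were -0.03, -0.16, -0.05 and -0.04. In the mural and smooth muscle list the members split, with 2 of 9 positive and 7 negative. Acta2 and Tagln, contractile genes of smooth muscle, rose, with Acta2 at 33.3, 145 and 178 CPM in the hindlimb and at 24.0, 67.5 and 75.3 CPM in the forelimb (0.87 ± 0.13, adjusted p = 0.0027). The groups overlapped through the distal phalanx, which was low in both limbs. The pericyte genes Rgs5, Abcc9 and Cspg4 fell, by 0.74 ± 0.13, 0.51 ± 0.09 and 0.28 ± 0.06. Cspg4 lost its call without the E16 middle, E16 proximal, E17 distal or E17 middle pair. The other 4 members, with Myh11 of smooth muscle among them, were negative and did not pass. In the mast cell list 1 of 6 fell, Mcpt4, a mast cell protease (-1.02 ± 0.19, adjusted p = 0.0086).

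Signalling lists are read against the 6.11% of all genes that passed. None of 12 Hedgehog members did in edgeR, where 4 had an unadjusted p under 0.05 and DESeq2 called 3 lower, and their median was -0.00. Of 21 BMP members 3 fell, namely Bmp2, its receptor gene Bmpr2 and the target Id4, the last at 24.7, 32.3 and 44.8 CPM against 32.5, 48.4 and 67.1 CPM (-0.56 ± 0.07, adjusted p = 0.00078). Of 27 Wnt members 2 rose, the secreted modulators Dkk2 (0.29 ± 0.07) and Sfrp2, and the ligand gene Wnt10b fell (-0.70 ± 0.14, adjusted p = 0.014). Of 18 FGF members 1 fell, the inhibitor Spred1 (-0.22 ± 0.05). In the IGF and imprinted growth list 2 of 19 fell, Igfbp3 and Plagl1 (-0.36 ± 0.06 and -0.32 ± 0.06). Bmp2, Bmpr2, Dkk2 and Spred1 each lost the call in 2 to 5 of the 6 fits with a pair left out, the E16 proximal one among them in each case, whereas Id4, Sfrp2, Wnt10b, Igfbp3 and Plagl1 lost it in none.

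In the retinoic acid list, 2 of 13 members rose, among them the carrier Crabp2 (0.35 ± 0.07). Aldh1a3, an enzyme that makes retinoic acid, was at 3.29, 6.15 and 8.29 CPM in the hindlimb and at 4.19, 11.5 and 14.0 CPM in the forelimb and fell in 6 of 6 pairs (-0.85 ± 0.13, adjusted p = 0.0027). In the digit patterning list 2 of 28 rose, the distal homeobox genes Msx1 and Msx2 (0.29 ± 0.08 and 0.24 ± 0.06), and Lmo1 fell (-0.82 ± 0.12). Among 17 immediate early and heat shock genes, Egr1 and Egr3 fell. Egr1 was at 28.7, 38.2 and 42.7 CPM in the hindlimb and at 44.9, 48.5 and 59.4 CPM in the forelimb, with no overlap (-0.43 ± 0.10, adjusted p = 0.026). Egr1 did not pass without the E16 middle or E16 proximal pair. Msx1 and Msx2 lost the call in 4 and 5 of the 6 such fits, without the E17 middle pair in neither.

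In the epidermis list 4 of 18 members fell, 1 rose and 13 did not pass, with a median of -0.14. Ivl, involucrin of the cornified envelope, was at 18, 81.6 and 166 CPM in the hindlimb and at 28.2, 139 and 268 CPM in the forelimb and fell in 6 of 6 pairs (-0.81 ± 0.12, adjusted p = 0.0025). Krt1, a suprabasal keratin, changed by -0.37 ± 0.09 and Calml3 by -0.56 ± 0.09, while the basal keratins Krt5 and Krt14 were at -0.01 ± 0.06 and -0.10 ± 0.07. Epcam, an epithelial adhesion gene, rose by 0.26 ± 0.06. Krt1 did not pass without any 1 of the distal or middle pairs, nor Epcam without the E16 proximal or E17 middle pair.

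Among the falls with the smallest p-values, Krt13, a keratin of stratified epithelia, was at 78.7, 295 and 707 CPM in the hindlimb and at 162, 524 and 1304 CPM in the forelimb. The ranges overlapped, since both limbs were higher at E17, but all 6 pairs fell (-0.82 ± 0.06, adjusted p = 2.0e-05). Klk10, a kallikrein protease, changed by -0.87 ± 0.07, Serpinb7, a protease inhibitor of the epidermis, by -0.78 ± 0.07 and Dynap by -1.15 ± 0.09. Alox12e, an epidermal lipoxygenase, changed by -1.85 ± 0.19, and Krt90 by -1.80 ± 0.20, each in 6 of 6 pairs.

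Some of the largest differences were in genes of low level. Ccer2 was at 0 to 0.418 CPM in the hindlimb and at 0.311, 3.06 and 12.3 CPM in the forelimb, and fell in 6 of 6 pairs (adjusted p = 0.00037). No hindlimb library reached 1 CPM, so Ccer2 passed the filter on low values only through the forelimb. Its p-value and pair count carry that limit, and its fitted fold rests on hindlimb values at or near 0. Tdgf1, a Nodal co-receptor, was at 0, 0.802 and 2.79 CPM against 0.278, 4.92 and 7.13 CPM (adjusted p = 0.0055). Ccl21a, a chemokine of lymphatic vessels, fell by 2.72 ± 0.56, but its near-identical copies make its count uncertain. Bbox1, of carnitine synthesis, was at 0.850, 1.75 and 4.31 CPM against 2.41, 7.30 and 11.5 CPM (-1.64 ± 0.17, adjusted p = 0.0002).

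On the higher side, Serpina3j was at 0.108, 4.53 and 30.1 CPM in the hindlimb and at 0, 0.336 and 1.25 CPM in the forelimb, highest in the proximal phalanx (3.79 ± 0.37, adjusted p = 0.00014). It belongs to a family of near-identical copies, so its count is uncertain. Cyp1b1, an enzyme of retinoid and steroid metabolism, was at 3.01, 6.69 and 16.3 CPM against 1.07, 3.62 and 6.22 CPM (1.26 ± 0.14, adjusted p = 0.00044). Nxph1, a secreted neurexin ligand, changed by 1.55 ± 0.40 and the imprinted gene Snrpn by 1.3 ± 0.35, with adjusted p of 0.038 and 0.048, and each lost the call in 4 of the 6 fits with a pair left out, the E16 middle and E16 proximal ones among them. For Snrpn the forelimb E17 proximal library was at 0 and its hindlimb match was also low. That match was at 0.414 CPM, against 5.7 to 9.3 CPM in the rest of the hindlimb.

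Several hard keratins of nail and hair, which are made in the distal phalanx, fell in the hindlimb. Of 16 nail and hard keratin genes, 8 fell (Krt31, Krt34, Krt81, Krt83, Krt85, Krt86, Krtap3-1 and Krtap3-2) and the median was -1.19. These calls rest on the 2 distal pairs. Krt81 was at 6.79 and 72.2 CPM in the distal hindlimb at E16 and E17, against 77.4 and 367 CPM in the distal forelimb, and at 0 in the other 8 libraries. Krt85 was at 243 and 736 CPM in the distal hindlimb against 690 and 1225 CPM in the distal forelimb. Genes absent outside the distal phalanx leave the test when a distal pair is dropped. Without the E16 distal pair 2 members fell, without the E17 distal pair 1 fell and 1 rose, and without both 0 fell and 1 rose. DESeq2 called 2 lower and 1 higher, with a median of -0.30. Under the stricter filter 0 of 6 members tested passed and the median was -0.01. In the fit of all 20 libraries 1 of 16 fell. The most abundant nail keratins did not pass, with Krt84 reaching 7028 CPM in the hindlimb against 6630 CPM in the forelimb (0.23 ± 0.31), and neither did the nail regulators Hoxc13 and Foxn1. Hard keratin and keratin-associated genes are similar to each other, so reads may be split between copies.

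Promoters of the 4 members of that list with an entry that fell are shown, because the genes changed together and are neighbours by family on chromosome 11. The windows are RefSeq, GRCm38.p6, minus strand, at chr11:100050502-100050801 (Krt31), chr11:100041505-100041804 (Krt34), chr11:99566581-99566880 (Krtap3-1) and chr11:99556804-99557103 (Krtap3-2). Capitals mark TATAAA, searched on both strands.
Krt31: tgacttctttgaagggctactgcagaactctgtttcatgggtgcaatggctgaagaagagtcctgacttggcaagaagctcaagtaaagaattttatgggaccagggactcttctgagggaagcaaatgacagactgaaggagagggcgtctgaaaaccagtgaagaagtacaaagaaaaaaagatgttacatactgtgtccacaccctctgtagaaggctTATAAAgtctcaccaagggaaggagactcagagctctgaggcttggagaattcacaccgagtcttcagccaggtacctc
Krt34: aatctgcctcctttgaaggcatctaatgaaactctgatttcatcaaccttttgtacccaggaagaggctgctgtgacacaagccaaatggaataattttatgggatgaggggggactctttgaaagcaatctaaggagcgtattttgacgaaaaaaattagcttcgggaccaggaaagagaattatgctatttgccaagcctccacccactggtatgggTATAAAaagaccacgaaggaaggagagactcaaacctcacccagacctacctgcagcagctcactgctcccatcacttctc
Krtap3-1: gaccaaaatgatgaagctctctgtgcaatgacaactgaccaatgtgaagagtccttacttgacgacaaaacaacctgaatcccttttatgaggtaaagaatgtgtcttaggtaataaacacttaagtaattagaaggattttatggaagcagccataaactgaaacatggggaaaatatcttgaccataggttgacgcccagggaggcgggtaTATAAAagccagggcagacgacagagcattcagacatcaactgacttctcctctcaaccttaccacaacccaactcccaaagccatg
Krtap3-2: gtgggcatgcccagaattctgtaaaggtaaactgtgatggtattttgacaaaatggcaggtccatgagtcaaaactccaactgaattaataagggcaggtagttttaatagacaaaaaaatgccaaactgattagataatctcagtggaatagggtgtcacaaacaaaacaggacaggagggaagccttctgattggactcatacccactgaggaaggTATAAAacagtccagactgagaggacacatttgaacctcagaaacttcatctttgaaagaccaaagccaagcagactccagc

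TATAAA stood 29 to 37 bases before the start in each of the 4, at -29 in Krt31, -31 in Krt34, -37 in Krtap3-1 and -32 in Krtap3-2. It was present in 14.2% of all 27025 promoters and in 7.49% of those of genes tested. The Krt31 and Krt34 windows were 52.2% identical and the Krtap3-1 and Krtap3-2 windows 51.1%, against 46% to 48.8% between the families.

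Whether the limb difference depended on stage, phalanx or digit was tested directly. No gene passed for stage, E17 against E16, in edgeR's test of the interaction (0.00%), where 831 genes had an unadjusted p under 0.05 and DESeq2 called 4. A count of 0 does not show that the limb difference was the same at both stages. For Pitx1, the log2 fold change was 5.66 at E16 and 5.89 at E17, for Tbx4 it was 1.98 and 1.79, and for Tbx5 it was -4.14 and -3.42.

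Between the distal phalanx and the others, 10 genes differed in their limb difference (0.0688%), with the difference more positive in the distal phalanx for 2 (0.0138%) and more negative for 8 (0.0551%). Pitx1 had a smaller log2 fold change in the distal phalanx, 4.88, than in the middle and proximal phalanges, 6.55 (adjusted p = 0.017), and its forelimb level was highest there, at 3.69 CPM at E16 and 1.31 CPM at E17. Tbx4 went the other way, at 2.48 in the distal phalanx and 1.60 in the others (adjusted p = 0.0496), a call lost with DESeq2 size factors and without the E16 distal, E17 middle or E17 proximal pair. Pitx1 lost its call without the E16 distal or E17 proximal pair. Acta2 was at 0.29 in the distal phalanx and at 1.15 in the others (adjusted p = 0.0496). Prr9, a gene of cornifying epithelia, was at 621 and 874 CPM in the distal hindlimb and 826 and 1023 CPM in the distal forelimb, but at 9.94 to 42.3 CPM against 3.40 to 13.1 CPM in the other phalanges (adjusted p = 7.5e-05). Krt34 fell more in the distal phalanx, by 2.88, than in the others, by 0.66. The remaining genes were Dapl1, H60c, Lrrc15, Fabp5 and Sp9. Without the E16 distal pair 1 gene was left, without the E17 proximal pair 3, and without the E17 distal pair there were 46.

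Between digit 2 and digit 1, 37 genes differed in their limb difference (0.249%) in a fit of all 20 libraries, 19 towards the hindlimb in digit 2 (0.128%) and 18 towards the forelimb (0.121%). In digit 1, from 4 pairs, 1680 genes differed between the limbs (11.3%), with 694 higher (4.67%) and 986 lower (6.63%) in the hindlimb, and in the same fit 271 genes differed in digit 2. Dbx2, a homeobox gene, was nearly level between limbs in digit 2 (0.11 ± 0.08) and higher in the hindlimb in digit 1 (1.67 ± 0.10), with a difference at adjusted p = 0.00035. Hoxd12 was at 0.07 ± 0.09 in digit 2 and at 1.38 ± 0.13 in digit 1, where its level was at most 6.97 CPM against 23.5 to 115 CPM in digit 2. Hoxd13 was at -0.12 ± 0.09 in digit 2 and 0.78 ± 0.12 in digit 1 (adjusted p = 0.025). Pax9, which marks the anterior side of the limb, was at -0.10 ± 0.16 in digit 2 and -2.09 ± 0.20 in digit 1 (adjusted p = 0.006).

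For Dkk2 and Igfbp3 the digit 2 difference had the same sign as in digit 1 and was smaller. Dkk2 was at 0.29 ± 0.08 in digit 2 and at 1.26 ± 0.11 in digit 1, and Igfbp3 at -0.36 ± 0.10 and -1.40 ± 0.12. Galnt9, a glycosyltransferase gene, was lower in the hindlimb of digit 2 (-0.54 ± 0.13) and higher in that of digit 1 (1.10 ± 0.16, adjusted p = 0.006). Tagln was higher in digit 2 (0.94 ± 0.19) and lower in digit 1 (-0.86 ± 0.23, adjusted p = 0.024). Without the E17 distal pair of digit 2, 12 genes differed between the digits, without the E16 middle pair 15, without the E17 middle pair 22 and without the E16 distal pair 23.

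Several hard keratins also differed between the digits. For Krt31, Krt81, Krt85 and Krtap3-1, the forelimb was above the hindlimb in the distal phalanx of digit 2 and below it in that of digit 1, at both stages. Krtap3-1 in the fit of 20 libraries was at 31.2 and 241 CPM in the distal hindlimb of digit 2 against 95.7 and 429 CPM in the forelimb, at E16 and E17. In digit 1 it was at 3.91 and 71.3 CPM in the distal hindlimb against 0.068 and 3.16 CPM in the forelimb (adjusted p of the difference = 0.006). Krt31 and Krt85 passed as well (adjusted p = 0.036 for both), and Krt81 with adjusted p = 0.0031, while Krt83 and Krt86 did not (0.14 and 0.28). Krt34 did not differ detectably between the digits (adjusted p = 0.91), and its distal hindlimb level was the lower in digit 1 too, at 1.23 and 12.4 CPM against 3.71 and 15.6 CPM. The digit 1 forelimb held little or none of Krt81, at 0 and 0.0836 CPM, so its fitted difference gives no fold.

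**Figure D5:**
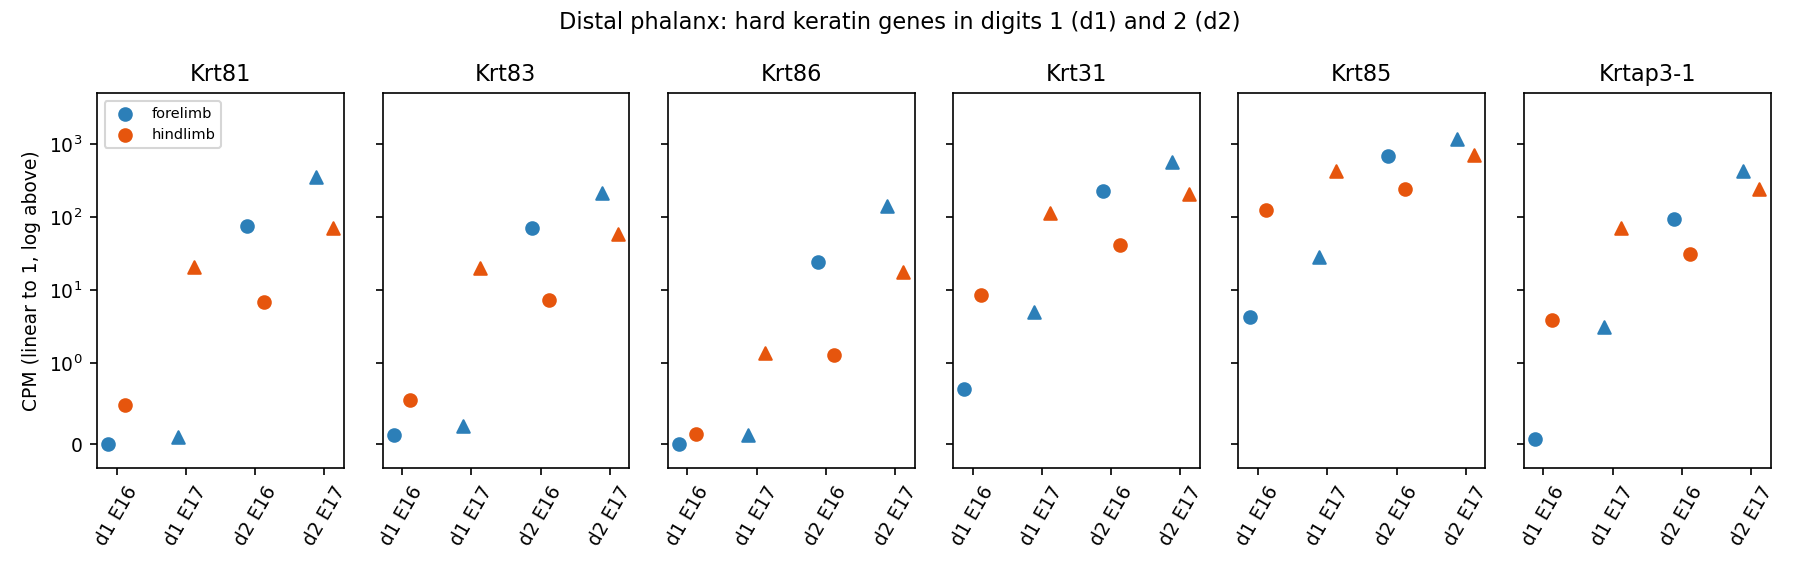
CPM of 6 hard keratin genes in the distal phalanx of digit 1 (d1) and digit 2 (d2) at E16 (circles) and E17 (triangles), forelimb blue and hindlimb orange, on an axis that is linear up to 1 and logarithmic above. In digit 2 the forelimb point is the higher of each pair, and in digit 1 the hindlimb point is.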

How the data were processed

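RNA was sequenced from pooled mouse phalanges. Each stage has a deposited table of whole-number read counts by gene symbol. Per the submitters' processing notes, the authors used HISAT2 2.2.1, StringTie 2.1.7 and build GRCm39, and how genes were counted is not given in the sources used here. The authors' TMM-normalised tables were not used. The tables were joined by symbol, with 23829 symbols alike and 58 matched by RefSeq synonym (23887 genes, 99.03% to 99.46% of the digit 2 counts). Genes with at least 1 CPM in at least 4 of 12 libraries were tested in R 4.3.3 by edgeR (version 4.0.16) after TMM scaling, with a term for each of 6 pairs and a limb term (5 residual degrees of freedom, two-sided, Benjamini-Hochberg adjusted p 0.05). The common coefficient of variation was 14.0%. The fit was tested on simulated data. DESeq2 1.42.0, other filters, normalizations and left-out pairs were alternatives. Named genes were the 10 highest and 10 lowest log2 fold changes among called genes with 6 of 6 pairs alike and a mean of at least 2 CPM, those with the 5 smallest p-values in each direction and in each interaction with calls, and list members. The members and the lists were chosen with earlier results of these data known. Some list members are not reported here. Precision here rests on 1 library per combination.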

Additional observations from a re-analysis of the deposited data

Results flagged for a closer look

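Several limb differences differed between places in the digit or between digits. The difference of log2 fold changes, distal phalanx minus the others, was -2.0 for Prr9, -2.52 for Dapl1, -2.22 for Krt34, -1.0 for H60c and -1.66 for Pitx1, among 10 genes that passed. Dapl1 was at 17.2 and 44.2 CPM in the distal hindlimb and at 29.6 and 57.0 CPM in the distal forelimb, with no library of the other phalanges above 3.72 CPM. H60c was at 16.3 and 32.7 CPM in the distal hindlimb against 38.4 and 61.8 CPM in the distal forelimb.

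Between digits, the difference of log2 fold changes, digit 2 minus digit 1, was -1.57 for Dbx2, -1.31 for Hoxd12, -5.68 for Krtap3-1 and -1.64 for Galnt9, among 37 genes that passed. The fitted value for Krt81 was -10.76, which is not a fold, since its digit 1 forelimb libraries were at or near 0. Whether other tissues in the dissected phalanges take part in these differences was not tested.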

How the results depend on the processing

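The count of 888 genes was within 1.5 times of itself with DESeq2 size factors, without the CPM filter, with a stricter filter and without the distal pairs. A like count is not a like set of genes. Among the 888 were 872 of the 900, 609 of the 650, 771 of the 913 and 466 of the 679 genes called, in that order. The count was 1564 with DESeq2, 271 with all 20 libraries in the fit, 333 in E16 pairs alone, 96 in E17 pairs alone, 210 without the middle pairs and 461 without the proximal pairs, and 404, 420, 513, 585, 701 or 710 with 1 pair left out. Dropping the pairing block for additive stage and phalanx terms gave 767 genes. The stage interaction gave 0, 1, 2 or 3 genes with 1 pair left out and 4 with DESeq2, a test added after the 0 was seen. The distal interaction gave 6 genes with DESeq2 size factors and 1 to 46 with 1 pair left out, and the digit interaction 12, 15, 22, 23, 25 or 30. Among the genes called and recomputed under the alternatives, none reversed its direction, and the other named genes were not recomputed. The causes were not tested. With 1 library per combination and 5 residual degrees of freedom, small differences depend on single pairs.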
